A study of Caenorhabditis elegans with 6 samples.

Results

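The superoxide dismutases, catalases and peroxiredoxins of *Caenorhabditis elegans* were followed here as 10 genes, picked by symbol from the 31180 genes of the RNA-seq table: sod-1, sod-2, sod-3, sod-4, sod-5, ctl-1, ctl-2, ctl-3, prdx-2 and prdx-3. Each symbol matched 1 row. All animals were of the N2 wild-type strain and were labelled L4, the last larval stage. HS animals were held at 35°C for 4 h after culture at 20°C, and CTRL animals stayed at 20°C without the heat treatment. Whole animals fed OP50 bacteria were collected, so every value is an average over all tissues, in which fewer cells of a type and less RNA per cell cannot be told apart. Ribosomal RNA was depleted and stranded libraries were made, 3 for HS and 3 for CTRL. For each gene the level used here is the authors' mean, the count divided by a library scaling factor and averaged over all 6 libraries. This mean joins HS and CTRL animals. It has no spread between replicates and gives no difference between the conditions, so the values below describe how abundant each transcript was over the experiment and not how it responded to heat. The columns of the authors' own comparison were not used.

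These enzymes act in sequence. Superoxide dismutases convert superoxide, a by-product of respiration, to hydrogen peroxide and oxygen, and catalases and peroxiredoxins then remove hydrogen peroxide. Catalases split it directly, whereas peroxiredoxins reduce it with electrons passed on by thioredoxin. In *C. elegans* the dismutases are spread over compartments. SOD-1 and SOD-5 are cytosolic Cu/Zn enzymes, SOD-4 is a secreted or membrane-bound Cu/Zn enzyme, and SOD-2 and SOD-3 are Mn enzymes of mitochondria. Among the others, CTL-1 is the cytosolic and CTL-2 the peroxisomal catalase, and PRDX-2 is a cytosolic and PRDX-3 a mitochondrial peroxiredoxin. sod-3 is widely used as a readout of the FOXO factor DAF-16.

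The precision of the means follows from the reads behind them. A single read in 1 library added between 0.114 and 0.311 to the mean, depending on the library, a 2.74-fold range of library scaling factors. With these 6 steps, all 7039 genes with a mean under 1 were whole numbers of reads to a relative tolerance of 1e-06. Which steps belong to HS libraries cannot be read from the mean. The members rested on between 33.8 and 92.4 reads for sod-5, the lowest, and between 24028 and 65759 reads for prdx-2, the highest. The intervals given below are 95% intervals for counting error. They take reads as independent and every read as coming from the library with the largest step. Differences between animals, differences between HS and CTRL and the choice of gene length do not enter them. Markers of the main tissues were all detected. Expressed per kilobase (kb) of exon, the levels ran from 72.9 for unc-119 and 76.9 for rab-3 (neurons) to 15690 for unc-54 (body-wall muscle), with germline, sperm, intestine and hypodermis markers between them. The adult-associated genes col-19, a cuticle collagen, and vit-2, a yolk protein, stood at 22309 and 8771 per kb, at percentiles 99.4 and 98.9 of protein-coding genes (PCGs), in libraries labelled L4. How this signal was divided between HS and CTRL was not analysed here, and its part in the members' levels was not tested.

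The 10 genes spanned a 664-fold range. Levels between genes were compared per kb of exon, with the exons of all transcripts of a gene merged. The median of the members was 509 normalized counts per kb, against 97.3 for all 18768 PCGs with a mean above 0 and an annotated gene model. Above the PCG median lay 8 of the 10 members, and 6 when only PCGs with a mean of at least 10 were ranked, while 4 lay above the 90th percentile of all PCGs, which was 965 per kb. The median percentile of the members was 77.4. Both genes under the PCG median were dismutases, sod-3 and sod-5. Together the members held 0.101% of the summed mean of all PCGs.

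**Figure D1:**
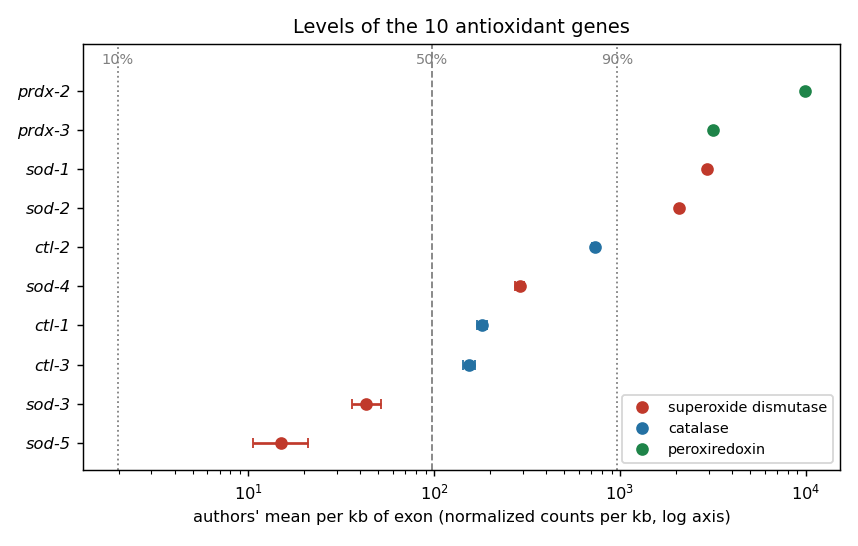
Level of each of the 10 antioxidant genes, as the authors' mean over HS and CTRL libraries per kb of exon on a log axis, with 95% counting intervals as bars (hidden by the point for the abundant genes) and colours for the enzyme families. Grey lines mark the 10th, 50th and 90th percentiles of PCGs; prdx-2, prdx-3, sod-1 and sod-2 lie beyond the last line, and sod-3 and sod-5 lie below the middle one.

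Among the dismutases, a pair of genes carried most of the transcript. sod-1 (WBGene00004930) had an authors' mean of 2125 normalized counts, or 2952 per kb (interval 2882 to 3022), at percentile 96.7 of PCGs. sod-2 (WBGene00004931) had a mean of 1664, or 2075 per kb (2020 to 2131), at percentile 95.3. The transcripts of the major cytosolic and the major mitochondrial dismutase were thus 1.42-fold apart, with sod-1 higher (interval of the ratio, 1.37 to 1.47). This ratio was 1.57 per kb of coding sequence and 1.28 without a correction for length. sod-1 made up 54.9% of the summed level of the 5 dismutases and sod-2 38.6%.

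The transcripts of the second cytosolic and the second mitochondrial dismutase were far less abundant. sod-5 (WBGene00007036) had a mean of 10.5 and a level of 14.9 per kb (10.6 to 20.9), at percentile 27.2 and 0.277% of the family. The cytosolic sod-1 was 198-fold above it (141 to 278). sod-3 (WBGene00004932) had a mean of 38.0 and a level of 43.2 per kb (36.2 to 51.5), at percentile 38.7 and 0.803% of the family. The mitochondrial sod-2 was 48.1-fold above it (40.2 to 57.5). Both low genes were nevertheless detected, with at least 33.8 reads for sod-5 and at least 122 for sod-3 over the 6 libraries. sod-3 was 2.90-fold above sod-5 (1.98 to 4.24), the widest interval among neighbours in the order of levels.

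sod-4 (WBGene00004933), the secreted or membrane-bound form, lay between these groups. Its mean was 377.6 and its level 289 per kb (273 to 306), at percentile 68.4. It made up 5.38% of the family, 10.2-fold below sod-1 (9.60 to 10.9). These values depended on the length used, since sod-1 was 6.99-fold above sod-4 per kb of coding sequence and 5.63-fold above it without a correction for length, where sod-4 held 8.96% of the family. It has 4 annotated transcripts and 8 merged exons, and no transcript holds all of them. Its level moved most with the definition of length, to 366 per kb of the longest transcript and 563 per kb of coding sequence.

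**Figure D2:**
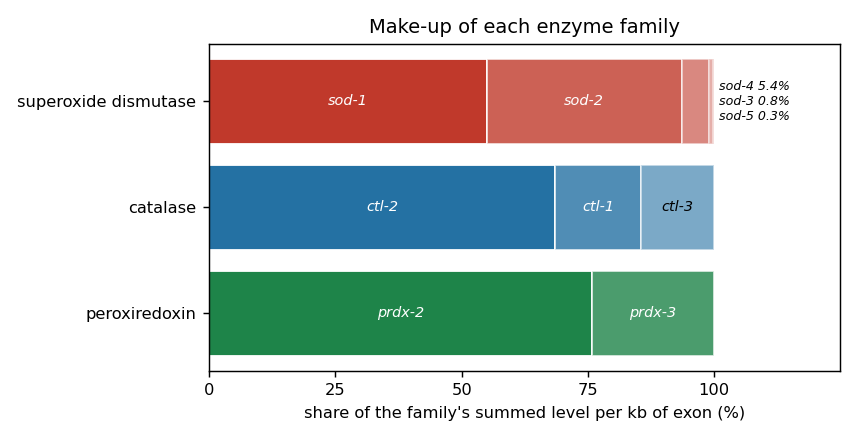
Share of each member in the summed level of its enzyme family, per kb of exon and in percent, from the authors' mean over HS and CTRL libraries. sod-1 and sod-2 fill most of the dismutase bar. ctl-2 holds 68.6% of the catalases and prdx-2 75.7% of the 2 peroxiredoxin members, a sum that leaves out prdx-6. Members too small for a label inside the bar are named beside it.

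The catalases were the least abundant family when summed, at 1063 per kb for 3 genes, against 5374 per kb for the 5 dismutases and 13058 per kb for the 2 peroxiredoxin members. ctl-2 (WBGene00000831), the peroxisomal enzyme, led with a mean of 1175 and a level of 729 per kb (706 to 753), at percentile 86.3. ctl-1 (WBGene00000830), the cytosolic enzyme, had a mean of 281 and 181 per kb (169 to 193), and ctl-3 (WBGene00013220) had a mean of 251 and 154 per kb (143 to 165). ctl-2 was thus 4.04-fold above ctl-1 (3.76 to 4.34) and 4.74-fold above ctl-3 (4.40 to 5.12). ctl-1 and ctl-3 differed by 1.17-fold (1.07 to 1.29). The percentiles were 59.9 for ctl-1 and 57.3 for ctl-3, so that no catalase reached the 90th percentile of PCGs.

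All 3 catalase genes lie in tandem on the minus strand of chromosome II, within 11224 bp from 14299556 to 14310779 of WBcel235. In the direction of transcription ctl-3 comes first, followed by ctl-1 after 1537 bp and by ctl-2 after 1540 bp. Each gene has an exon of 645 bp followed by an exon of 273 bp, and ctl-1 and ctl-2 each also have a first exon of 61 bp. Lengths of exons were compared here, not their sequences. The last exons differ, with 575 bp in ctl-1 and 632 bp in ctl-2. Reads that match more than 1 of these related genes could have been divided or discarded in counting, and how such reads were treated is not given in the sources used here. The split of the catalase total between the 3 genes is therefore uncertain, most of all the 1.17-fold gap between ctl-1 and ctl-3. Discarded reads would also lower the total, so the levels and percentiles of the catalases could be too low. Their family sum and the ratios of other genes to a catalase share this uncertainty, and its size was not tested. The paper also describes transcripts in HS that ran on into a downstream gene of the same strand. Their part in the catalase levels was not tested.

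**Figure D3:**
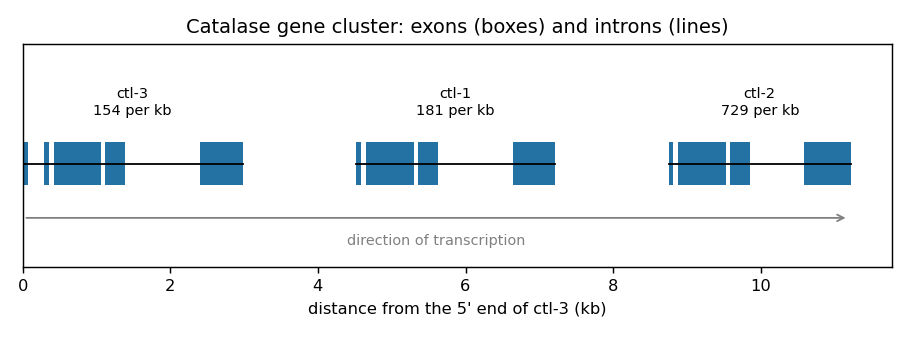
Map of the catalase cluster, with distance from the 5′ end of ctl-3 in kb on the x axis, exons of all transcripts as boxes and introns as lines; the level over each gene is the authors' mean per kb of exon. The last gene in the direction of transcription, ctl-2, has the highest level (729 per kb), and each gene has exons of 645 bp and 273 bp.

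The peroxiredoxins were the most abundant family. prdx-2 (WBGene00006434), the cytosolic enzyme, had a mean of 7477 and a level of 9891 per kb (9766 to 10017), and 195 PCGs lay above it, which places it at percentile 99.0. prdx-3 (WBGene00011110), the mitochondrial enzyme, had a mean of 2438 and a level of 3167 per kb (3097 to 3238), at percentile 96.9. prdx-2 was 3.12-fold above prdx-3 (3.04 to 3.20). Set against the leading members of the other families, prdx-2 was 3.35-fold above sod-1 (3.26 to 3.44) and 13.6-fold above ctl-2 (13.1 to 14.0). ctl-2 has the longer exons, and prdx-2 was 6.37-fold above it without a correction for length and 15.5-fold per kb of coding sequence. With the other lengths tried, and without a correction, prdx-2 was 3.09-fold to 3.52-fold above sod-1 and 3.07-fold to 3.38-fold above prdx-3. Among the genes for mitochondrial enzymes, the prdx-3 transcript was 1.53-fold above that of sod-2 (1.47 to 1.58). Per kb of coding sequence prdx-3 was 1.43-fold above sod-2, and without a correction for length 1.465-fold. These ratios are of transcripts in whole animals, and protein of the members was not measured here.

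From high to low the order per kb of exon was prdx-2, prdx-3, sod-1, sod-2, ctl-2, sod-4, ctl-1, ctl-3, sod-3 and sod-5. Each member differed from the next by more than the counting error of independent reads, with intervals of the ratio that left out 1. The intervals hold no difference between animals or conditions. Each step to or from a catalase, that of ctl-1 over ctl-3 included, also depends on reads the catalases could share. The smallest step was that of prdx-3 over sod-1, 1.07-fold (1.04 to 1.11). Per kb of coding sequence this step turned round, to 0.914, whereas the other neighbours kept their order under each definition of length tried.

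The cytosolic genes held the highest level of all, prdx-2, and the lowest, sod-5. Of the mitochondrial genes, prdx-3 and sod-2 were both above the 90th percentile of PCGs and sod-3 was below the median. The peroxisomal ctl-2 was in the middle of the order.

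The median length of merged exons was 841.5 bp for the members, against 1207 bp for all PCGs, and the median gene span was 1526 bp, against 2124.5 bp. By either measure 6 members were shorter than the PCG median, whereas the 3 catalases and sod-4 were longer. The median number of merged exons was 5 in both. On chromosome II lie 6 of the members, 60% against 17.2% of the PCGs, among them the 3 catalases, which share 1 locus. sod-1 lies there from 6972706 to 6973887 on the minus strand, sod-5 from 4417633 to 4419130 on the plus strand and prdx-2 from 5378195 to 5379631 on the plus strand. Chromosome III holds sod-4 (9496884 to 9500375, minus strand) and prdx-3 (4407444 to 4408437, plus strand). sod-2 lies on chromosome I from 8434550 to 8435807 and sod-3 on chromosome X from 17092753 to 17094306, both on the plus strand.

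Of the 10 members, 5 overlap an exon of a gene on the opposite strand, and none of the overlapping genes lies on the same strand. The largest overlap is that of sod-4 with ctr-9, which encodes a subunit of the PAF1 complex, over 175 bp or 13.4% of the sod-4 exons. The mean of ctr-9 was 2769, against 377.6 for sod-4 itself. sod-1 overlaps the ncRNA C15F1.13 over 85 bp, but the mean of this ncRNA was 1.11. sod-2 shares 21 bp with dpt-1 (mean 2741) and ctl-2 shares 65 bp with Y54G11A.7 (mean 243). sod-3 overlaps C08A9.3 over 65 bp and lido-1 over 24 bp, or 7.38% and 2.72% of the sod-3 exons. The means of these genes were 4.22 and 48.9, the second of which is above the mean of 38.0 for sod-3. All these means are of whole genes and not of the shared stretches. The kit marks the strand of each read, but whether strand was used in counting is not given in the sources used here. Without it, reads over the stretches that these pairs share could not be told apart. The part of such reads in the low level of sod-3 and in that of sod-4 was not tested.

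Genes that feed and surround this pathway, with regulators and peroxisome import genes among them, were taken from a list of 33 other redox genes. Their median level was 586 per kb, against 509 for the members, and 27 of them were above the PCG median. The highest were msra-1, a methionine sulfoxide reductase, at 7219 per kb, gsr-1, glutathione reductase, at 2689, and gpx-5, a glutathione peroxidase, at 2338. prdx-2 was thus above every gene of the list, and msra-1 was above the other 9 members. The lowest were trx-5 at 7.80 per kb, duox-2, a dual oxidase, at 7.20, and trx-1, a thioredoxin, at 2.04, each under sod-5. Few reads lay behind trx-5 and trx-1, whose means were 3.35 and 1.30, and no counting intervals were computed for the listed genes.

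By role, the 8 genes listed for the thioredoxin system had a median of 439 per kb, and 1 of them, prdx-6 at 618 per kb, is itself a peroxiredoxin. The other 7, thioredoxins and thioredoxin reductases, had a median of 260 per kb and ran from 2.04 to 1178. Both peroxiredoxin members, which draw on thioredoxin, lay above this range, and prdx-6 lay within it. The 11 glutathione enzymes had a median of 586 per kb, and gpx-5 alone held 53.7% of the summed level of the 8 gpx genes, so that here too a single gene stood for most of a family of peroxide-removing enzymes. The 5 glutaredoxins ran from 641 to 1597 per kb, all above the PCG median. The genes skn-1, wdr-23 and daf-16, which encode the Nrf-type factor of the oxidative stress response, its repressor and the FOXO factor, had levels from 283 to 679 per kb. Of the dual oxidases, which produce hydrogen peroxide, bli-3 had the higher level at 215 per kb. The peroxisome import genes prx-5 and prx-13 reached at most 241 per kb, under the peroxisomal ctl-2.

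**Figure D4:**
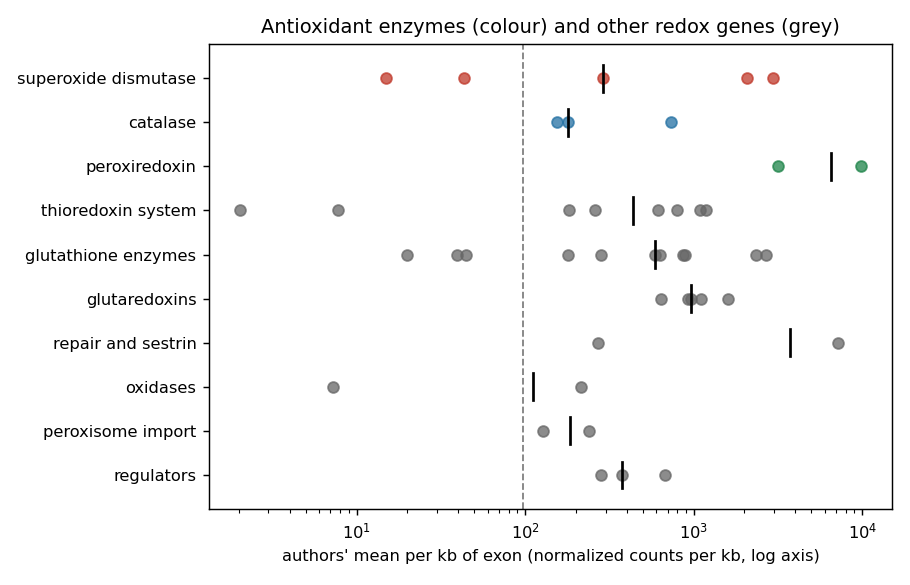
Levels of the members by enzyme family (colour) above those of 33 other redox genes by role (grey), as the authors' mean over HS and CTRL libraries per kb of exon on a log axis; each point is a gene, each black bar the median of its row, and the dashed line the median of all PCGs at 97.3 per kb. The 2 peroxiredoxin members have the highest median of any row, while the dismutases run from 14.9 to 2952 per kb.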

How the data were processed

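Per the labels and the paper's methods, total RNA was depleted of ribosomal RNA and sequenced as stranded paired-end libraries. The authors trimmed reads with fastq-mcf, aligned them with STAR to WS235, counted them with FeatureCounts on Ensembl 88 genes and ran DESeq2. Tool versions are not given in the sources used here. The signal used, the mean normalized count, was made by the authors from counts divided by size factors and averaged over the 6 libraries. The other 5 columns hold the authors' comparison of HS with CTRL (fold change, its error, statistic and p-values) and were not used, so no test between groups was made. The members and gene lists were chosen with earlier results of these data known.

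Symbols came from a gene name table, which named 28726 of the 31180 genes. Gene models came from Ensembl 115 of the same build (WBcel235), which differs from the authors' release, and 217 genes without a model there were left out. Means were divided by merged exon length, and a percentile is the share of PCGs at or below a value. Single-read steps were the lowest values shared by at least 20 genes that are no sum of lower steps, and the step search was tested on simulated means. Counting intervals treat every read as coming from the library with the largest step and use 1.96 standard errors. They take reads as independent and cover this counting error only, although reads are not independent molecules. Alternatives were other gene lengths, none included, other sets of ranked genes and, chosen after seeing the data, the thioredoxin list without prdx-6. All 10 members were named, and of the other redox genes the 3 highest and 3 lowest, with the rest by counts and ranges. prdx-6, bli-3 and the named regulators and import genes were chosen after their values were seen. Python 3.11.15, pandas 2.3.3, numpy 2.4.6 and matplotlib 3.10.9 were used.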

Additional observations from a re-analysis of the deposited data

How the results depend on the processing

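Without a correction for length, sod-1 held 50.4% of the dismutase level, and its share stayed within its counting interval with the other lengths. Of the summed level of the 2 peroxiredoxin members, prdx-2 held 76.5% per kb of the longest transcript and 77.2% per kb of coding sequence. The share of ctl-2 stayed within its counting interval throughout. The median percentile of the members was 84.4 among all 30963 genes and 70.3 among the 14316 PCGs with a mean of at least 10. Among all genes 9 of the 10 members lay above the median, with sod-3 at percentile 51.6. Among the PCGs with a mean of at least 10 only 6 did, with ctl-1 at percentile 47.4, ctl-3 at 44.0, sod-3 at 19.8 and sod-5 at 5.95. Coding sequence is shorter than the merged exons in every member, so all 10 levels had to be higher per kb of it. The rise was up to 1.95-fold (sod-4), and 7 levels left their counting interval. With the longest transcript 2 did. Leaving the interval also depends on depth, since the interval is narrower for genes with more reads. Differences between HS and CTRL, edgeR and DESeq2 fits and the omission of single replicates were not run, since the data used hold no values of single libraries. No paired analysis was possible because the mean joins all 6 libraries. Of the members, depth limits sod-5 most, with a counting interval of 10.6 to 20.9 around 14.9 per kb.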
